A study of Mus musculus with 72 samples.

Results

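Expression of 10 genes of NAD metabolism was followed in RNA-seq of the mouse suprachiasmatic nucleus (SCN), the hypothalamic seat of the central circadian clock. They were chosen by gene symbol from what their enzymes do, and all 10 were found among the 24883 gene entries of the deposited tables. *Nampt*, *Nmnat1*, *Nmnat2*, *Nmnat3*, *Nadsyn1* and *Qprt* encode enzymes that make NAD, *Nadk* encodes the kinase that turns NAD into NADP, and *Sirt1*, *Parp1* and *Cd38* encode enzymes that consume NAD.

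NAD carries electrons in energy metabolism and is also a substrate that is broken down by sirtuins, poly(ADP-ribose) polymerases and CD38. Cells replace it by recycling nicotinamide, in which NAMPT is the rate-limiting enzyme, from nicotinic acid, or de novo from tryptophan through kynurenine and quinolinic acid. In liver and other peripheral tissues the clock drives *Nampt* through E-boxes, and SIRT1 in turn acts on clock proteins.

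The SCN came from male C57BL/6 mice, aged 8 weeks at the start, which spent 1 week under their light schedule and then 2 weeks, housed alone, on a diet with tryptophan (Ctrl) or without it (-Trp). The light schedule was a light/dark cycle with 12 h of light (LD) or constant darkness (DD), so there were 4 groups, named Ctrl LD and -Trp LD under the light/dark cycle and Ctrl DD and -Trp DD in darkness. Each group had 18 libraries, 3 at each of 0, 4, 8, 12, 16 and 20 h (zeitgeber time in LD and circadian time in DD), which gives 72 in all. Replicates are separate libraries, and where the labels do not say that they came from separate mice, p-values measure the spread between libraries.

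The deposited values are FPKM, which scale fragments to transcript length and to the library, and the number of reads behind a value is unknown. The columns of the tables were placed in groups in the order of the study's own supplementary table, because all 36 control columns of that table equal deposited columns of another name, and the 36 -Trp libraries were placed by continuing the same shift. Every direction below rests on this order, and the values with the columns as named stand in the closing section. Summed FPKM was at least 403066 in all 36 LD libraries and in 1 -Trp DD library and at most 353587 in the other 35 DD libraries, so the light schedule and this range cannot be told apart. Of 7 clock genes, JTK_CYCLE called 6 rhythmic on Ctrl and 4 on -Trp under LD, and 0 on Ctrl and 1 on -Trp under DD. All 7 SCN neuron markers were above 0 in every library, but 2 libraries stood apart: summed SCN markers were 40.5 FPKM in Ctrl DD 12 h replicate 1 and 53.9 FPKM in -Trp LD 20 h replicate 3, against 145 to 1027 FPKM in the other 70. These libraries also held the highest *Parp1* (17.4 and 13.1 FPKM) and the lowest *Cd38* (2.13 and 3.27 FPKM) of all 72, and the second held the lowest *Nadsyn1* (0.844 FPKM) and the highest *Nadk* (21.7 FPKM).

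*Nmnat2*, the NMN adenylyltransferase known from axons and neurons, was the most abundant of the 10 transcripts, and *Qprt*, which joins quinolinic acid to the NAD route, was the least. *Nmnat2* averaged 47.8 ± 7.65 FPKM (SD, n = 72) and its lowest library, at 31.2 FPKM, was above the highest library of every other member. *Nadk* averaged 16.8 ± 1.54 FPKM and *Nampt* 11.8 ± 1.46 FPKM. FPKM is a scale per transcript length, so these levels can be set side by side. In the GENCODE M21 annotation of mm10, *Nmnat2* lies at chr1:152954993-153119261 and *Nampt* at chr12:32819545-32853349, both on the plus strand.

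After these came *Parp1*, the main DNA-damage polymerase (9.58 ± 1.40 FPKM), *Cd38*, an NAD glycohydrolase (6.13 ± 1.19 FPKM), and *Sirt1*, the nuclear deacetylase (3.82 ± 0.776 FPKM). *Nadsyn1*, the synthetase that finishes the de novo and nicotinic acid routes, averaged 2.28 ± 0.438 FPKM, and nuclear *Nmnat1* 2.19 ± 0.522 FPKM. *Nadsyn1* was the higher in 38 of 72 libraries, but the order of their means differed between LD and DD. *Nadsyn1* averaged 2.14 FPKM in Ctrl LD and 1.85 FPKM in -Trp LD, below *Nmnat1* at 2.50 and 2.41 FPKM. In Ctrl DD and -Trp DD it averaged 2.42 and 2.71 FPKM, above *Nmnat1* at 1.84 and 2.01 FPKM. Mitochondrial *Nmnat3* averaged 1.12 ± 0.254 FPKM and *Qprt* 0.431 ± 0.234 FPKM (SD, n = 72). Every other pair of neighbours in this order kept its order in at least 61 of 72 libraries, though only the range of *Nmnat2* was free of overlap with the next gene. *Qprt* ran from 0.104 to 1.44 FPKM, and its mean lay under the mean of 0.5 FPKM required for a test of level.

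**Figure D1:**
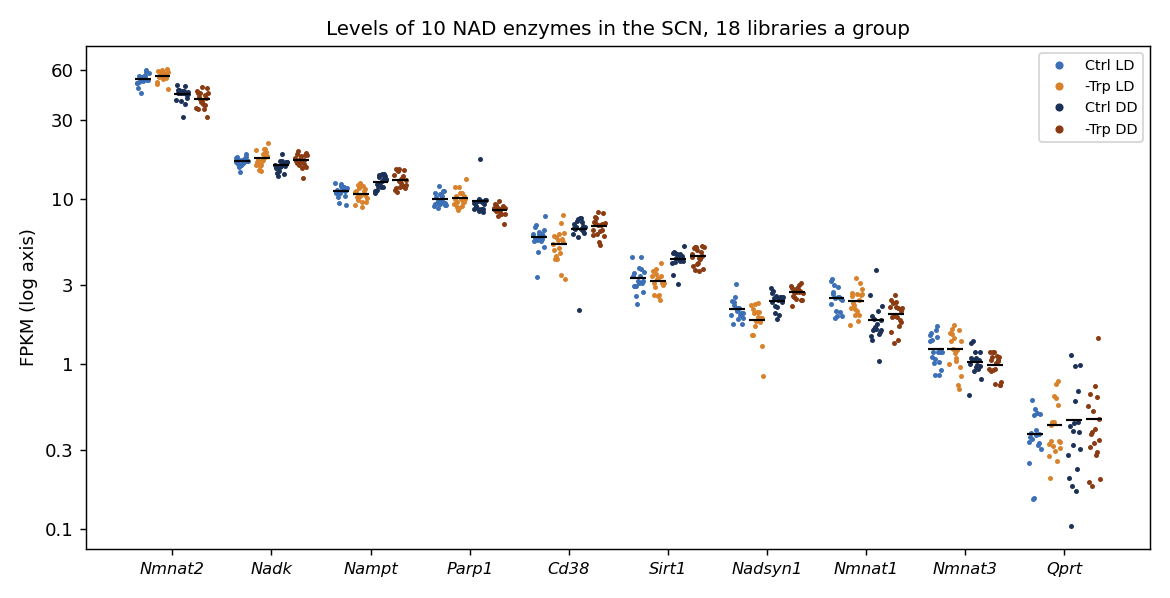
FPKM on a log axis of each of the 10 genes, ordered by mean, in the 18 libraries of each group (points) with the group mean (bar). *Nmnat2* lies above all others in every library and is higher in LD than in DD, while *Qprt* lies between 0.104 and 1.44 FPKM.

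The question was whether these genes oscillated and whether diet changed it. Without adjustment over genes, *Nadk* was called rhythmic in LD on both diets. It had a trough at 8 h and high values at 16 and 20 h, and in Ctrl LD also at 0 h. *Nampt* was called in Ctrl DD and *Nmnat3* in -Trp LD. JTK_CYCLE, a rank test for a 24 h pattern with an exact null distribution, called a gene at p under 0.05 after adjustment over 6 lags and none over genes. Under LD it called 1 of 10 members on Ctrl and 2 on -Trp, and under DD 1 on Ctrl and 0 on -Trp. Over all 24883 entries it called 7.11% on Ctrl and 7.42% on -Trp under LD, and 4.92% on Ctrl and 1.42% on -Trp under DD, so the counts are near the background and say nothing particular about the group of enzymes. With 0 called in -Trp DD by JTK_CYCLE, a limma cosine fit at an unadjusted p under 0.05 also called 0 of the 9 members it tested there, against 2.23% of all genes. The same fit called 2 of 9 in Ctrl LD (*Nadk* and *Nadsyn1*) against 14.5% of all genes, 3 of 9 in -Trp LD (*Nadk*, *Nadsyn1* and *Nmnat3*) against 16.4%, and 1 of 9 in Ctrl DD (*Nampt*) against 8.24%.

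*Nampt*, the salvage enzyme, was flat in LD: its means by time ran from 10.6 to 11.8 FPKM in Ctrl LD and from 10.1 to 11.5 FPKM in -Trp LD. In Ctrl DD the libraries of 0 h held 11.1, 10.9 and 11.1 FPKM and those of 8 h held 13.6, 13.9 and 12.5 FPKM. The 2 sets did not overlap, and the means stayed between 12.9 and 13.3 FPKM from 8 to 20 h, a plateau rather than a single peak. The exact test of JTK_CYCLE gave p = 0.0441 with a peak at 14 h, and the cosine fit an amplitude of 0.10 ± 0.03 (SE, log2) with a peak at 12.8 h and an unadjusted p of 0.0211 in limma. The call was kept in 7 of 18 fits that each left out 1 library, and without Ctrl DD 12 h replicate 1 the exact p was 0.00839. It was also kept after median-of-ratios scaling of the libraries (exact p = 0.0109). It was lost with replicate numbers as a block (exact p = 0.0724) and with ties kept in the template (exact p = 0.0898). After Benjamini-Hochberg adjustment of the exact p over all entries it did not pass (adjusted p = 0.896). In -Trp DD the values at 4 h alone ran from 11 to 15.2 FPKM, and no 24 h pattern passed (exact p = 1). The lowest of these values came from replicate 2, the 1 DD library whose summed FPKM (411944) lay in the range of LD. In each of the 18 fits of -Trp DD that left out 1 library, 0 members were called.

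*Nmnat3* was called in -Trp LD (exact p = 0.0441, peak at 6 h). Its libraries held 1.51, 1.62 and 1.23 FPKM at 4 h and 0.749, 0.702 and 1.6 FPKM at 16 h, so 1 library of 16 h lay among those of the day. The call was kept in 6 of 18 fits that left out 1 library, and the exact p was 0.0224 without -Trp LD 20 h replicate 3. With replicate numbers as a block it was lost (exact p = 0.0568) and *Qprt* was called in its place. In Ctrl LD the same gene gave an exact p = 1, yet its time points were tight: it held 1.5, 1.38 and 1.54 FPKM at 0 h, 1.01, 0.859 and 1.08 FPKM at 8 h, 1.6, 1.46 and 1.70 FPKM at 12 h and 1.18, 1.02 and 0.858 FPKM at 16 h. The libraries of 0 and 12 h lay above all of those of 8, 16 and 20 h. A test for a 24 h cycle does not describe such a course with high values at both 0 and 12 h. *Nmnat1* and *Nmnat2* passed in no group.

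*Nadsyn1* in Ctrl LD lay just outside the threshold (exact p = 0.0568, peak at 8 h). Its highest mean was 2.44 ± 0.536 FPKM at 8 h and its lowest 1.90 ± 0.154 FPKM at 20 h (SD, n = 3). It passed after median-of-ratios scaling of the libraries (exact p = 0.0259). *Qprt* passed in no group without that block, and neither did *Sirt1*, *Parp1* or *Cd38*.

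*Nadk*, which makes NADP from NAD and lies at chr4:155562378-155591001 on the plus strand, was the only member called in more than 1 group. In Ctrl LD its libraries held 14.5, 16.0 and 15.9 FPKM at 8 h and 16.6, 17.7 and 18.6 FPKM at 16 h. At 20 h they held 17.9, 17 and 17 FPKM, and at 0 h 16.7, 17.6 and 17.9 FPKM. In -Trp LD they held 15.8, 14.8 and 16.1 FPKM at 8 h, 20.0, 17.8 and 19.9 FPKM at 16 h and 19.2, 18 and 21.7 FPKM at 20 h. At 0 h they held 16.0, 19.8 and 16.7 FPKM. In each diet the values of 8 h lay below all of those of 16 h and of 20 h. The exact test gave p = 0.00576 in Ctrl LD and p = 0.00139 in -Trp LD, both with a peak at 20 h. The calls were kept in all 18 fits of each group that left out 1 library, and in -Trp LD also without replicate 3 of 20 h (exact p = 0.00588). After Benjamini-Hochberg adjustment over all entries neither exact p passed (adjusted p = 0.335 and 0.122).

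The amplitude of *Nadk* was 0.08 ± 0.02 (SE, log2) in Ctrl LD and 0.18 ± 0.04 in -Trp LD, with peaks of the cosine fit at 19.3 and 18.2 h. The difference in rhythm between the diets was not past the threshold (limma, unadjusted p = 0.109). In DD *Nadk* passed on neither diet (exact p = 0.177 on Ctrl and 0.640 on -Trp by JTK_CYCLE). At 12 h its mean was highest in Ctrl DD (17.4 ± 1.16 FPKM) and lowest in -Trp DD (15.1 ± 1.72 FPKM), and at 4 h it was lowest in Ctrl DD (14.7 ± 0.893 FPKM) and highest in -Trp DD (18.3 ± 1.34 FPKM; SD, n = 3). This difference in rhythm in DD had an unadjusted p of 0.0569 in limma and an adjusted p of 0.750. Of the 9 members tested, 0 differed in rhythm between diets in LD and 0 in DD at an adjusted p under 0.05, and 0 in each at an unadjusted p under 0.05. Over all genes limma called 0% in LD and 0.0345% in DD after adjustment, and 3.21% and 6.84% without it.

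**Figure D2:**
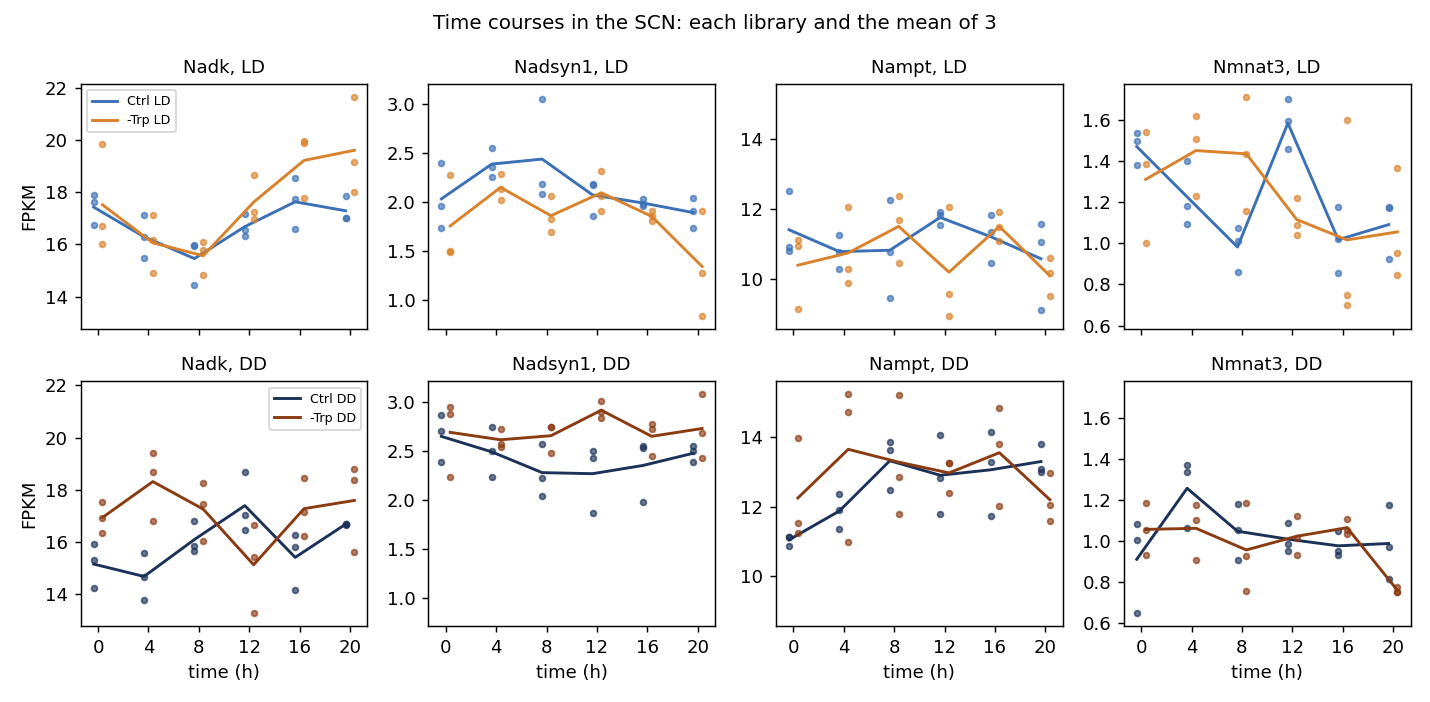
FPKM against time in h for *Nadk*, *Nadsyn1*, *Nampt* and *Nmnat3* in LD (upper row) and DD (lower row), with each library as a point and the mean of 3 libraries as a line for Ctrl and -Trp. *Nadk* dips at 8 h in LD on both diets, and *Nadsyn1* of -Trp lies above Ctrl at all 6 time points in DD.

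The E-box, which is the DNA site of CLOCK and BMAL1, was looked for in promoters. The reason was that *Nadk* was called rhythmic in LD and *Nampt* was not, without adjustment over genes. A difference in rhythm between these genes was not tested. RefSeq windows of 250 bases before and 50 bases from each transcript start (GRCm38.p6, the assembly also called mm10) matched all 10 members, with 12 windows. The letters CACGTG, which read the same on both strands, were in 3 of these 12 windows, those of *Nadk*, *Sirt1* and *Parp1*, and in 7.15% of all 32851 windows. The D-box letters TTATGTAA and TTACGTAA, on either strand, were in 0 of the 12 windows and in 0.938% and 0.119% of all windows. The E-boxes are shown with 12 bases on each side in the direction of the gene and the motif in capitals, and lie 40 bases (*Nadk*), 115 and 43 bases (*Sirt1*) and 49 bases (*Parp1*) before the start.
Nadk, chr4:155563763-155563792, plus strand: cgccgctctcccCACGTGccctgcagcgca
Sirt1, chr10:63339133-63339162, minus strand: gcggcgcccggcCACGTGacccggcgtgtt
Sirt1, chr10:63339061-63339090, minus strand: ggaggggcgggtCACGTGacggggtttaaa
Parp1, chr1:180568830-180568859, plus strand: acctcccaaggaCACGTGctgaagccccgc
*Nadk* has 2 RefSeq starts and only the second window, chr4:155563565-155563864, holds the motif. *Sirt1* and *Parp1* hold it and were called rhythmic in no group, and *Nampt* holds none in its window, chr12:32820085-32820384. Bases outside these windows and other forms of the E-box were not searched, so an E-box of *Nampt* elsewhere would be missed.

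The next comparison asked whether the tryptophan-free diet shifted the level of the enzymes, averaged over the time points. *Nadsyn1* was higher on -Trp than on Ctrl in DD and lower in LD, and of the 9 members tested it was the only one to pass a test, in DD. The limma test of log2(FPKM + 0.5) called 0 of 9 members in LD, where it called 1.11% of all genes (0.563% higher and 0.542% lower), and 1 of 9 in DD, in the higher direction, where it called 13.4% (7.25% higher and 6.19% lower). At an unadjusted p under 0.05 there were 3 of 9 in each, against 13% of all genes in LD and 31.6% in DD. The median log2 difference over the 9 was -0.03 in LD and 0.05 in DD, beside 0.0034 and 0.01 over all genes.

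*Nadsyn1*, at chr7:143795584-143822849 on the minus strand, ran from 1.87 to 2.86 FPKM with a median of 2.50 FPKM in Ctrl DD, and from 2.24 to 3.08 FPKM with a median of 2.74 FPKM in -Trp DD. The groups overlapped, but the mean was higher on -Trp at 6 of 6 time points. The log2 difference was 0.15 ± 0.04 (SE; adjusted p = 0.0258 in limma) and it passed in all 36 fits that left out 1 library, at adjusted p from 0.0113 to 0.0476. In LD it ran from 1.74 to 3.06 FPKM with a median of 2.06 FPKM on Ctrl, and from 0.844 to 2.32 FPKM with a median of 1.91 FPKM on -Trp. The mean was lower on -Trp at 5 of 6 time points, and the log2 difference was -0.17 ± 0.06 (SE; unadjusted p = 0.00951, adjusted p = 0.198), which did not pass. Without the library of 0.844 FPKM, -Trp LD 20 h replicate 3, it was -0.13 (adjusted p = 0.250).

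The difference between diets in LD minus that in DD was tested over all 72 libraries. For *Nadsyn1* it was -0.31 ± 0.07 (SE, log2; 95% interval -0.46 to -0.16; adjusted p = 0.00652), so the diet difference of this gene itself differed between LD and DD. It was kept in 72 of 72 fits that left out 1 library, and it was -0.26 (adjusted p = 0.00927) without both libraries low in SCN markers. It was 1 of 9 members called, in the lower direction, against 7.69% of all genes tested (5.37% higher and 2.33% lower), and 3 of 9 were at an unadjusted p under 0.05, against 26% of all genes. *Nmnat2* followed in the opposite direction, at 0.17 ± 0.06 (adjusted p = 0.0537), which did not pass. Without the 2 libraries low in SCN markers it was 0.20 and passed (adjusted p = 0.016). Its mean under LD was 53.0 ± 4.06 FPKM on Ctrl and 55.4 ± 3.77 FPKM on -Trp, and under DD 42.8 ± 4.03 FPKM on Ctrl and 40.2 ± 4.52 FPKM on -Trp (SD, n = 18).

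*Nadk* was at 15.9 ± 1.2 FPKM in Ctrl DD and 17.1 ± 1.5 FPKM in -Trp DD (SD, n = 18), a log2 difference of 0.11 ± 0.04 with an adjusted p of 0.0761. It ran from 13.8 to 18.7 FPKM on Ctrl and from 13.3 to 19.4 FPKM on -Trp, and 14 of 18 -Trp libraries lay above the Ctrl median after scaling. The difference passed in 3 of 36 fits that left out 1 library, and the adjusted p over the 36 ran from 0.0177 to 0.127 in limma. The lowest was without Ctrl DD 12 h replicate 1, which had the highest *Nadk* of its group, and the difference was then 0.13. In LD the difference of *Nadk* was 0.08 ± 0.03 (unadjusted p = 0.0270, adjusted p = 0.303).

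Of the consumers, *Parp1* ran from 8.34 to 17.4 FPKM with a median of 9.32 FPKM in Ctrl DD and from 7.02 to 9.62 FPKM with a median of 8.71 FPKM in -Trp DD. After scaling, its mean was lower on -Trp at 6 of 6 time points, yet the log2 difference of -0.13 ± 0.06 had an adjusted p of 0.130. In FPKM as deposited, its mean at 16 h was slightly higher on -Trp. Without the library of 17.4 FPKM, Ctrl DD 12 h replicate 1, the difference was -0.08 with an adjusted p of 0.0508. *Sirt1* differed between diets by -0.03 ± 0.06 in LD and 0.05 ± 0.05 in DD, and *Cd38* by -0.13 ± 0.08 and 0.08 ± 0.09 (SE, log2). For *Sirt1* the 95% intervals reached from -0.15 to 0.09 in LD and from -0.06 to 0.15 in DD.

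The salvage enzyme *Nampt* differed between diets by -0.03 ± 0.04 in LD (95% interval -0.11 to 0.06) and by 0.05 ± 0.04 in DD (-0.04 to 0.14). *Nmnat1* and *Nmnat3* also passed in neither light condition, with log2 differences from -0.04 to 0.12. *Qprt* was not tested: its median under LD was 0.367 FPKM on Ctrl and 0.342 FPKM on -Trp, and under DD 0.390 FPKM on Ctrl and 0.383 FPKM on -Trp, and its groups overlapped over most of their range.

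**Figure D3:**
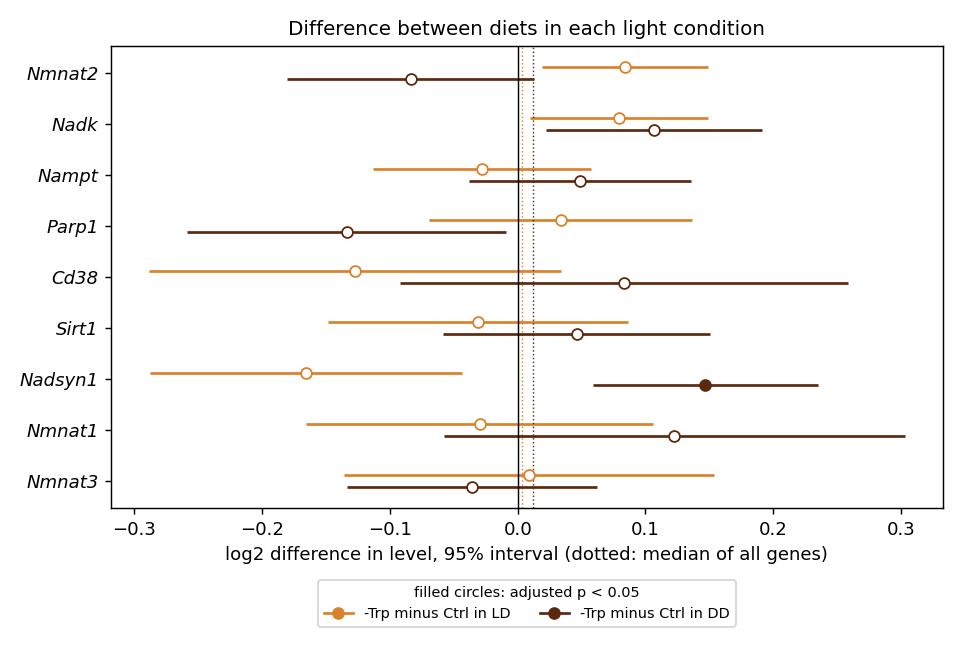
Log2 difference in level, -Trp minus Ctrl, with its 95% interval for 9 genes in LD and DD (filled circles passed at an adjusted p under 0.05, dotted lines mark the median of all genes). *Nadsyn1* lies at -0.17 in LD and at 0.15 in DD, where it is the only filled circle.

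Some cell type markers also differed between diets in DD, where limma called 13.4% of all genes. Of 5 oligodendrocyte markers 2 were lower on -Trp, among them *Mag* (-0.38 ± 0.12, SE, log2), and 0 higher. Their summed FPKM had a median of 1331 on Ctrl (950 to 2980) and 1037 on -Trp (767 to 1958). The 2980 FPKM came from Ctrl DD 12 h replicate 1, the library lowest in SCN markers. Of 5 astrocyte markers 1 was lower and 1 higher, and of 5 microglial markers 1 was lower, while 0 of 7 SCN neuron and 0 of 4 neuron markers passed. Of the endothelial, ependymal and neighbouring hypothalamic markers 0 passed. In the test of the diet difference between LD and DD, which called 7.69% of all genes, 1 of 7 SCN neuron markers passed, the neuropeptide *Avp* (-1.01 ± 0.32). So did 1 of 5 markers of the neighbouring hypothalamus, the neuropeptide *Oxt* (-1.14 ± 0.35), and both lay in the direction of *Nadsyn1*. Of 4 neuron markers 1 passed, *Rbfox3* (0.41 ± 0.11), in the direction of *Nmnat2*. In each of the other marker lists 0 passed. The part of cell composition in the results for *Nadsyn1*, *Nadk* and *Parp1* was not tested, and fewer cells of a type and less RNA per cell cannot be told apart in these bulk samples.

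*Sirt1*, *Nampt*, *Nadsyn1* and *Cd38* were lower in LD than in DD on both diets, and *Nmnat2* was higher. On Ctrl limma called 6 of 9 members, against 78.8% of all genes, and on -Trp also 6 of 9, against 79.5%, so the share of members is no larger than that of all genes. At an unadjusted p under 0.05 there were 6 of 9 on Ctrl against 80.1% of all genes, and 7 of 9 on -Trp against 80.7%. The light schedule goes with the range of summed FPKM, and its part cannot be told apart from that of sequencing or processing. FPKM as deposited, without scaling, moved the median of all genes from 0.02 to 0.11 (log2) on both diets and kept the sign of every member called. It called 7 members on Ctrl, with *Nadk* and *Nmnat3* gained and *Cd38* lost, and 8 on -Trp, with *Nmnat1* and *Nmnat3* gained. It moved the differences on Ctrl of *Nampt* to -0.17, *Nadsyn1* to -0.15 and *Nmnat2* to 0.31, and that of *Parp1* on -Trp to 0.22.

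*Sirt1* ran from 2.31 to 4.45 FPKM with a median of 3.17 FPKM in Ctrl LD and from 3.07 to 5.18 FPKM with a median of 4.39 FPKM in Ctrl DD, and 13 of 18 Ctrl LD libraries lay below every Ctrl DD library after scaling. The log2 difference, LD minus DD, was -0.45 ± 0.06 on Ctrl and -0.53 ± 0.06 on -Trp. *Nampt* was at 11.1 ± 0.899 FPKM in Ctrl LD and 12.6 ± 1.09 FPKM in Ctrl DD (SD, n = 18), with log2 differences of -0.27 ± 0.03 on Ctrl and -0.35 ± 0.05 on -Trp. After scaling, both genes had a lower mean in LD at 6 of 6 time points on each diet. In FPKM as deposited, the mean of *Nampt* at 0 h was 11.4 in Ctrl LD and 11.05 in Ctrl DD.

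*Nadsyn1* differed by -0.23 ± 0.05 on Ctrl and by -0.55 ± 0.06 on -Trp, where all 18 LD libraries lay below every DD library after scaling. *Cd38* differed by -0.22 ± 0.09 on Ctrl and by -0.43 ± 0.08 on -Trp. Without Ctrl DD 12 h replicate 1, the library lowest in *Cd38*, its difference on Ctrl was -0.30, and with FPKM as deposited it was -0.13 and did not pass (adjusted p = 0.24). These 4 genes of different roles were thus lower in LD, in a comparison in which 37.8% of all genes were.

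*Nmnat2* was higher in LD by 0.20 ± 0.04 on Ctrl and by 0.37 ± 0.04 on -Trp, and its mean was higher at 6 of 6 time points on each diet. *Nmnat1* was higher on Ctrl (0.29 ± 0.08, adjusted p = 0.00172), with a difference of 0.14 ± 0.07 on -Trp (adjusted p = 0.0687), and *Parp1* was higher on -Trp (0.13 ± 0.05, adjusted p = 0.0106), with -0.03 ± 0.06 on Ctrl (adjusted p = 0.616). These made 2 of 9 members higher in LD on each diet, against 41.1% of all genes on Ctrl and 41.7% on -Trp. *Nadk* and *Nmnat3* passed on neither diet, though *Nmnat3* on -Trp did in 1 fit of all 72 libraries and in some fits that left out 1 library. Neuron markers went with *Nmnat2*: their summed FPKM had a median of 1033 in Ctrl LD and 1072 in -Trp LD against 713 in Ctrl DD and 669 in -Trp DD, and 3 of 4 on Ctrl and 4 of 4 on -Trp were higher in LD. Oligodendrocyte markers were higher in LD too, 4 of 5 on Ctrl and 5 of 5 on -Trp, as were 2 of 5 microglial markers on Ctrl and 4 of 5 on -Trp. Markers of the neighbouring hypothalamus went with the 4 lower genes, 4 of 5 lower and 1 higher on each diet, as did 3 of 4 endothelial markers on -Trp (1 lower and 1 higher on Ctrl). Of 7 SCN neuron markers 5 were higher and 2 lower on Ctrl, and 1 higher and 2 lower on -Trp. The part of these lists in the differences was not tested.

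**Figure D4:**
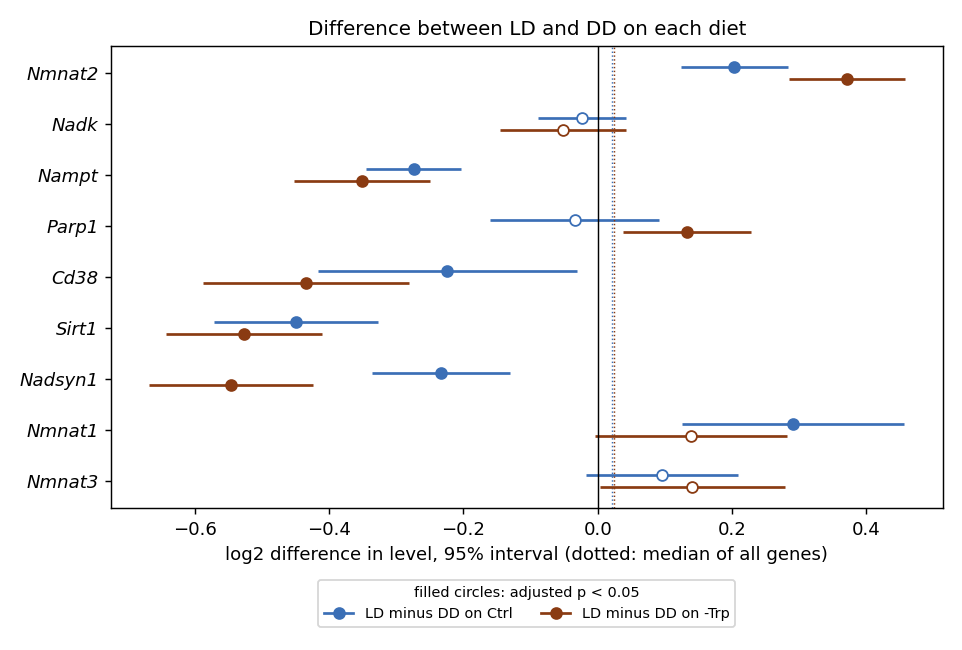
Log2 difference in level, LD minus DD, with its 95% interval for 9 genes on Ctrl and on -Trp (filled circles passed at an adjusted p under 0.05, dotted lines mark the median of all genes). *Sirt1*, *Nadsyn1*, *Nampt* and *Cd38* lie left of 0 and *Nmnat2* right of it on both diets.

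Over the 24 means of group and time point, each centred on its group, the members shared little of their course: among 45 pairs the correlation of log2 values ran from -0.64 to 0.56 with a median of 0.02. The points share libraries, so this is a description. The genes most like *Nampt* among 13240 genes averaging 1 FPKM or more were *Cdkl4* (r = 0.847), *Tmem165* (0.844), *Armc8* (0.837), *Bcap29* (0.822) and *Hnrnpk* (0.820).

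Beyond the 10 members, 48 genes of NAD entry, the kynurenine route, NADP handling and NAD consumption were measured. Under LD JTK_CYCLE called 8 of 48 on Ctrl, against 7.11% of all entries, and 6 on -Trp, against 7.42%. Under DD it called 6 on Ctrl, against 4.92%, and 0 on -Trp, against 1.42%. In Ctrl LD the smallest p belonged to *Ido1*, which opens the kynurenine route (exact p = 0.000943, highest mean 0.958 FPKM at 8 h and lowest 0.440 FPKM at 16 h), followed by *Bst1*, *Parp11*, *Haao* and *Nnt*. Of these, *Bst1* (mean 0.124 FPKM) and *Haao* (0.236 FPKM) lay under the mean of 0.5 FPKM required for a test of level. In -Trp LD the smallest p belonged to *Ido2* (exact p = 0.00412), followed by *Nnt*, *Sirt5*, *Aox1* and *Ccbl2*. Without -Trp LD 20 h replicate 3 there were 5 calls. Those of *Ccbl2* (exact p = 0.0700) and *Ccbl1* (exact p = 0.0535) were lost, and *Pnp* was gained (exact p = 0.00839). *Ccbl1* and *Pnp* are named for this change only. *Sirt5*, a mitochondrial desuccinylase, had its highest mean at 4 h and its lowest at 16 h on both diets in LD, at 12.6 and 9.01 FPKM on Ctrl and 13.5 and 9.29 FPKM on -Trp.

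In Ctrl DD the 5 with the smallest p were *Parp14* (exact p = 0.00203), *Parp10*, *Kynu*, *Slc12a8* and *Parp2*. The sixth, named after its values were seen, was *Parp9*. *Kynu* (mean 0.0852 FPKM) and *Slc12a8* (0.305 FPKM) lay under the mean of 0.5 FPKM required for a test of level. All 4 *Parp* genes had their highest mean at 12 h, the time point that holds the library low in SCN markers. Without that library 4 of the 6 calls were kept, and those of *Parp9* (exact p = 0.0700) and *Slc12a8* (exact p = 0.0535) were lost. By limma, 0 of 38 tested differed between diets in LD (2 at an unadjusted p under 0.05) and 2 of 38 in DD. *Sirt2*, the cytoplasmic deacetylase that is abundant in oligodendrocytes, was lower on -Trp in DD (-0.15 ± 0.04, adjusted p = 0.0113). Its medians were 67.8 FPKM on Ctrl and 59.8 FPKM on -Trp. Of 5 oligodendrocyte markers 2 were lower there, as given above, and the part of cell composition in this result was not tested.

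*Sirt4*, a mitochondrial sirtuin, was higher on -Trp in DD (0.13 ± 0.04, adjusted p = 0.0437), with medians of 8.91 and 9.84 FPKM, and kept this call in 16 of 36 fits that left out 1 library. The call was lost with the replicate block (adjusted p = 0.0512), without the filter (0.0675), with FPKM as deposited (0.0503) and in 1 fit of all 72 libraries (0.229). The median log2 difference of the 38 genes was -0.02 in LD and 0.01 in DD. Of the 11 genes of the kynurenine route, 5 in LD and 4 in DD passed the filter on low values, and limma called 0 of these between diets, with 0 in LD and 2 in DD at an unadjusted p under 0.05. In the test of the diet difference between LD and DD, 0 of 38 passed, with 4 at an unadjusted p under 0.05. Between LD and DD 25 of 38 were called on Ctrl, 17 lower and 8 higher in LD, against 78.8% of all genes (37.8% lower and 41.1% higher). On -Trp 28 of 38 were called, 19 lower and 9 higher, against 79.5% (37.8% lower and 41.7% higher). The smallest p belonged to *Parp4* on Ctrl (-0.79 ± 0.05) and *Parp8* on -Trp (-0.78 ± 0.05), and the log2 difference furthest from 0 on Ctrl to the tankyrase *Tnks* (-1.41 ± 0.11).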

How the data were processed

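RNA-seq of the SCN was deposited by the authors as FPKM per gene and library, made with Trimmomatic, TopHat and Cufflinks on mm10 per the submitters' processing notes, whose versions are not given in the sources used here. Whether counting used strand is not stated, and *Cd38* and *Nmnat3* overlap other annotated loci. Read depth is unknown. Columns were placed in the order of the study's supplementary table, by values equal within a relative tolerance of 0.0001, and 0 columns were left unused. The members and gene lists were chosen with earlier results of these data known.

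Oscillation was tested on FPKM with a rewritten JTK_CYCLE (24 h, 6 lags, templates 2 h apart, exact null). Levels were tested in R 4.3.3 by limma 3.58.1, which took log2(FPKM + 0.5) of libraries scaled by median of ratios, kept genes averaging 0.5 FPKM or more, and fitted the time point as a factor, with Benjamini-Hochberg adjustment over all genes tested (threshold 0.05). A fold change on this scale understates that of low genes. Rhythm differences used limma's joint test of the diet by cosine and sine terms. Both methods were tested on simulated data. Alternatives were the column order, the pseudocount (0.1 and 1), scaling, the filter, a replicate block, 1 fit of all 72 libraries, each library left out in turn and, chosen after seeing the data, the 2 libraries lowest in SCN markers left out.

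All members are named, and of other NAD genes that passed at most the 5 with the smallest p per comparison. *Tnks* was among these on Ctrl. *Sirt5* was named in -Trp LD and its Ctrl LD values are given beside it. Sequences are from RefSeq (GRCm38.p6) and positions from GENCODE M21. Other steps used Matplotlib 3.10.9, SciPy 1.17.1, NumPy 2.4.6 and pandas 2.3.3 under Python 3.11.15. A marker gene's result is not reported here.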

Additional observations from a re-analysis of the deposited data

Results flagged for a closer look

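The diet difference of *Nadsyn1* differed between the light conditions by a test of the difference itself: the log2 difference of -Trp minus Ctrl in LD minus that in DD was -0.31 (limma, adjusted p = 0.00652). The mean was higher on -Trp at 6 of 6 time points in DD and at 1 of 6 in LD.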

How the results depend on the processing

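The order of the columns decides most results. With the columns as named, the count of oscillating members was 0 on -Trp under LD, and 4 on Ctrl and 1 on -Trp under DD, and that of members called was 4 and 6 for diet in LD and DD, 1 for light on Ctrl, 5 for the diet difference between LD and DD, and 1 and 2 for rhythm in LD and DD. Log2 differences then turned to 0.26 (*Nadsyn1*) and -0.29 (*Nmnat2*) for diet in LD, to -0.0698 (*Nadk*), -0.32 (*Nadsyn1*), 0.11 (*Parp1*), 0.25 (*Sirt2*) and -0.47 (*Sirt4*) for diet in DD, to -0.0446 (*Nmnat1*) for light on Ctrl, to 0.31 (*Cd38*), 0.28 (*Nadsyn1*), 0.33 (*Nampt*), -0.30 (*Nmnat2*), -0.0031 (*Parp1*) and 0.46 (*Sirt1*) for light on -Trp, and to 0.58 (*Nadsyn1*), -0.53 (*Nmnat2*) and -0.12 (*Parp1*) for the diet difference between LD and DD. Over all entries JTK_CYCLE then called 9416 on Ctrl and 617 on -Trp under LD, and 6874 on Ctrl and 1661 on -Trp under DD, against 1769, 1846, 1225 and 354 in the order used, of which Benjamini-Hochberg adjustment left 21, 93, 0 and 0. The cause was not tested.

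For oscillation, adjustment over all entries left 0 members in both LD groups and in Ctrl DD. In Ctrl LD median-of-ratios scaling, ties kept in the template, the replicate block and limma's cosine fit gave 2 each, in -Trp LD scaling and ties kept gave 1 each, and in Ctrl DD ties kept and the replicate block gave 0 each. For diet in DD, 1 fit of all 72 libraries and leaving out the 2 libraries lowest in SCN markers gave 2 each. For the diet difference between LD and DD, a mean of at least 1 FPKM, the replicate block and leaving out those 2 libraries gave 2 each. Leaving out 1 library gave 1 to 2 members in Ctrl LD and -Trp LD, 0 to 2 in Ctrl DD, 1 to 2 for diet in DD, 5 to 6 for light on Ctrl, 6 to 8 for light on -Trp and 1 to 2 for the diet difference between LD and DD. The cause was not tested. Replicate numbers were not taken to pair the samples in the main tests, since not every pair passed a correlation of deviations of 0.1. In LD 4 of 18 pairs did and in DD 12 of 18 (median 0.172 in DD). Each Ctrl library was compared with the 3 -Trp libraries of its time point, and 5 in LD and 11 in DD correlated best with their own number. Whether replicate numbers mark a shared batch in DD was not tested. The replicate block also exchanged *Nmnat3* for *Qprt* among the oscillating members of -Trp LD. In DD it ended the call of *Nampt* on Ctrl and that of *Sirt4* for diet. It kept that of *Nadsyn1* for diet in DD (limma, adjusted p = 0.032). Without read counts, a low gene such as *Qprt* cannot be given a counting error.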
